A study of Mus musculus with 2 samples.

Results

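Gjb2, Gjb6, Gja1, Kcnq1, Kcne1, Kcnj10, Slc12a2 and Slc26a4 are 8 of the 21938 protein-coding genes of GENCODE vM21, a gene annotation of the mouse genome build GRCm38. They encode 3 connexins and 5 proteins that move potassium, chloride or bicarbonate around the endolymph of the cochlea. Their accessible chromatin was read from ATAC-seq, in which the transposase Tn5 inserts sequencing adapters preferentially into open DNA. Organs of Corti came from neonatal mice, WT or Bmi1 KO, and each genotype gave 1 library, so no difference between genotypes could be set against a spread between replicates. A peak counted for a gene when its centre lay within 3 kb of any transcription start site (TSS) of the gene, here called a promoter peak, or in the gene body and the 10 kb upstream. By this rule 36 of 77596 peaks labelled WT and 50 of 100431 peaks labelled Bmi1 KO belonged to the 8 genes.

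The mutant mice were homozygous for Bmi1tm1Brn, a null allele present in every cell of the animal. The allele had been backcrossed to C57BL/6J, and WT animals were littermates of the mutants. The animals were at postnatal day 2, and the dissected organs of several mice were pooled before nuclei were isolated, so each library is a mixture of animals and of cell types. In such a bulk library, fewer cells of a type and less open chromatin per cell cannot be told apart. The names given to single peaks disagree with the labels, since all of them in both lists start with the abbreviation of the opposite genotype. All directions below follow the sample labels and would turn if those were crossed. At Bmi1 itself (chr2:18677018-18686629) the gene body held 1 peak labelled WT and 3 labelled Bmi1 KO. The peak labelled WT stood at the 40.1st percentile of its list, and the strongest labelled Bmi1 KO at the 92.0th. These peaks overlapped, with 17 reads over a local background of 6.32 labelled WT and 29 over 9.58 labelled Bmi1 KO. At 68.6% of the 16298 protein-coding genes compared below, the strongest promoter peak also stood higher labelled Bmi1 KO. Whether the labels were crossed was not tested. The list labelled Bmi1 KO was 1.29 times as long, and the commonest local background under its peaks was 8.04 reads against 6.32.

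Endolymph, the fluid above the hair bundles, is rich in potassium and is held at a positive potential by the stria vascularis. Potassium that leaves hair cells is thought to be taken up by supporting cells and fibrocytes, spread through gap junctions built from connexins, and secreted again by strial marginal cells. In marginal cells Slc12a2, the sodium-potassium-chloride cotransporter, loads the ion from the strial side, and the channel formed by Kcnq1 and its accessory subunit Kcne1 releases it into the endolymph. Kcnj10 is the inwardly rectifying potassium channel of strial intermediate cells and of glia-like supporting cells. Slc26a4, known as pendrin, exchanges chloride for bicarbonate in epithelial cells outside the organ of Corti, and loss of any of several of these genes causes deafness. Strial cells lie in the lateral wall of the cochlear duct, beside the organ of Corti and not in it.

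The sequences before the starts of 5 of the genes are printed because the promoters differ in the features that distinguish broadly open from restricted promoters, CpG content and short core motifs. They are the 250 bases upstream of the RefSeq start, from a table of RefSeq promoters on GRCm38.p6 that holds 5 of the 8 genes. Capitals mark matches to any of 4 motifs, searched on both strands. These were the GC box with the letters GGGCGG, the CCAAT box, the TATA box with the letters TATAAA, and the AP-1 motif, for which the search used TGANTCA.
Gjb2, chr14:57104703-57104952, minus strand: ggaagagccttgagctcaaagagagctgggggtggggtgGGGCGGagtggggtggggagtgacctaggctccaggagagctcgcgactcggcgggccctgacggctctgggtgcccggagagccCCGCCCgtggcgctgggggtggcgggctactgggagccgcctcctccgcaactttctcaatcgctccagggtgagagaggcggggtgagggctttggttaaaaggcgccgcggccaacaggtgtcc
Gjb6, chr14:57133612-57133861, minus strand: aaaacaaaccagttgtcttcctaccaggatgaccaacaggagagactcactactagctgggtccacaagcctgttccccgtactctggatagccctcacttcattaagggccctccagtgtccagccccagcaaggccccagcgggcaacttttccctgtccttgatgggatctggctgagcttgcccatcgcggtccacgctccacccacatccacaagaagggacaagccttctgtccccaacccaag
Gja1, chr10:56377050-56377299, plus strand: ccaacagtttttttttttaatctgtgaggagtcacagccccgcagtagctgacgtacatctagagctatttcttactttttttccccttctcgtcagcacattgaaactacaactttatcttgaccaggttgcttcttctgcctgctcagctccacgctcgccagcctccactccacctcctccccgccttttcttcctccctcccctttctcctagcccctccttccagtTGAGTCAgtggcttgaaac
Kcnj10, chr1:172340960-172341209, plus strand: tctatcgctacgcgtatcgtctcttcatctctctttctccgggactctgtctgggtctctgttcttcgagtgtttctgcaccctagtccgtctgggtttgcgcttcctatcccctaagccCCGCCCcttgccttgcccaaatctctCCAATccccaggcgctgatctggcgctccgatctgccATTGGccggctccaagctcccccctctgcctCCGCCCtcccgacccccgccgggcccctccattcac
Slc26a4, chr12:31559985-31560234, minus strand: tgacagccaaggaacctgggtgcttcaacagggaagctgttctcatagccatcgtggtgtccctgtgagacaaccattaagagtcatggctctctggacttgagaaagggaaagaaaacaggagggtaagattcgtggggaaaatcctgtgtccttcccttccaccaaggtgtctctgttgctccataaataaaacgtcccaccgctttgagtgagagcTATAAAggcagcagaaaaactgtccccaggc
Over the whole RefSeq window, which adds 50 bases after the start, Gjb2 had a CpG observed over expected ratio of 0.76 and Kcnj10 of 0.748, against a median of 0.384 over 32851 such windows. Gja1 had 0.544, Slc26a4 had 0.321 and Gjb6 had 0.255. The promoters of Gjb2 and Gjb6, which lie side by side and whose products join in the same gap junctions, are thus far apart on this scale. GC boxes were found at Gjb2 (2) and Kcnj10 (3) and at none of the other 3 genes, and 35.7% of all windows hold such a match. The remaining matches were 2 CCAAT boxes at Kcnj10, 1 TATA box at Slc26a4 and 1 AP-1 motif at Gja1, against 37.4%, 13.6% and 7.81% of all windows with at least 1. The E-box (CANNTG), not marked above, was found at all of these genes but Kcnj10 and in 72.3% of all windows.

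Of the stretches covered by a peak in both lists, 3 are shown, each outside the exons of the 8 genes. They carry the comparisons at Gjb2, at Slc26a4 and within Kcnq1, and were read from the GRCm38 genome, with the same motifs in capitals. The last one spans the annotated start of Kcnq1ot1, so part of it lies within that gene.
Gjb2 intron, chr14:57104331-57104468, minus strand: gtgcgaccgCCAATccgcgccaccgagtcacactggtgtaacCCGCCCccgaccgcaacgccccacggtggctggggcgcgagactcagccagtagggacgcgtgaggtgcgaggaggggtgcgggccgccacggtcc
Slc26a4 intron, chr12:31559779-31559950, minus strand: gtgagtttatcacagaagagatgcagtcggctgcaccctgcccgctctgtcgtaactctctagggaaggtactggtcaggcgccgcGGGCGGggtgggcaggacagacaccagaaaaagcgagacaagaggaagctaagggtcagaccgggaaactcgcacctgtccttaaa
Kcnq1ot1 start, chr7:143296458-143296593, minus strand: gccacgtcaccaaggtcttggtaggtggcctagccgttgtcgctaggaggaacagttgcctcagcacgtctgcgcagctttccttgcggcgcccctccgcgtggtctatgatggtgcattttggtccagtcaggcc
Their CpG observed over expected ratios were 0.974 at Gjb2, 0.714 at Slc26a4 and 0.711 at Kcnq1ot1. The Gjb2 stretch holds 1 GC box and 1 CCAAT box, and the Slc26a4 stretch holds 1 GC box although the promoter window before the same gene holds none.

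A promoter peak was found at 7 of the 8 genes in the list labelled WT (87.5%; 95% CI 47.3 to 99.7) and at 6 in the list labelled Bmi1 KO (75.0%, 34.9 to 96.8), against 59.1% and 68.2% of all protein-coding genes. Intervals of shares are exact binomial intervals and cover counting error only. Gjb2, Kcnq1, Kcnj10, Slc12a2 and Slc26a4 had a promoter peak in both lists, as did 53.0% of all genes. Gjb6 and Kcne1 had a promoter peak labelled WT only (2 of 8, against 6.10% of all genes), and Gja1 had a promoter peak labelled Bmi1 KO only (1 of 8, against 15.2%). The intervals of 47.3 to 99.7 and 34.9 to 96.8 contain the background shares, so with 8 genes the shares in each list could not be told apart from those of all genes.

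Peaks of the 2 libraries were compared by their percentile of −log10 p within their own list, since the lists differ in depth. The strongest promoter peak stood higher in the list labelled Bmi1 KO at 5 of the 8 genes (62.5%, 24.5 to 91.5). This compares with 68.6% of all 16298 protein-coding genes that had such a peak in at least 1 list. A gene with a promoter peak in 1 list only was counted as higher in that list, so Gja1 was counted here and Gjb6 and Kcne1 were not. For Gjb2 the percentiles were 62.6 labelled WT and 98.5 labelled Bmi1 KO, the widest gap among the 5 genes with a promoter peak in both lists. For Slc26a4 they were 56.8 and 78.0, for Kcnq1 76.8 and 81.9, and for Kcnj10 76.3 and 81.1. Slc12a2 was near the top of both lists, at 98.2 and 97.2. A percentile is a rank and not a height, and equal reads over background can stand at different percentiles, as they did at Slc26a4. With only peaks of −log10 q 5 or higher, Gjb2 and Slc12a2 kept a promoter peak labelled Bmi1 KO (17.6% of all genes did), and none of the 8 genes kept a peak labelled WT (4.17% of all genes did).

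**Figure D1:**
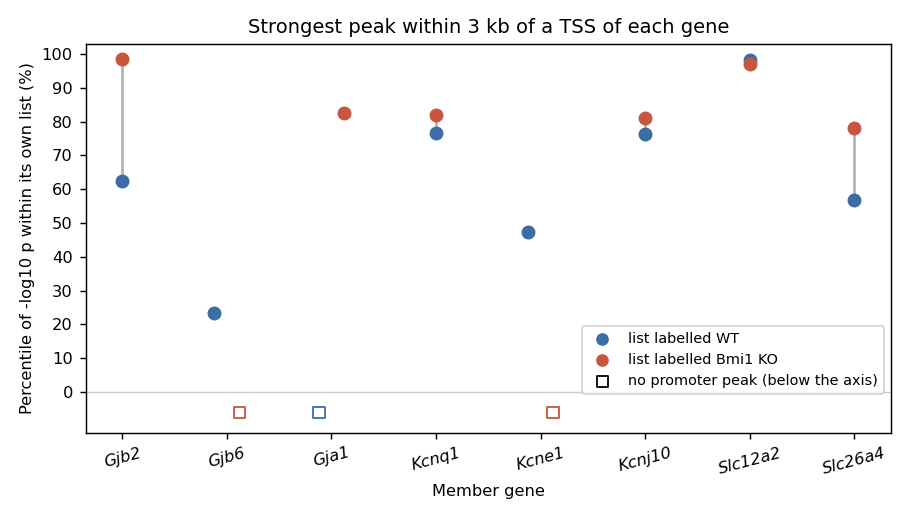
Percentile of −log10 p, within its own list, of the strongest peak within 3 kb of a TSS of each gene (1 library per genotype, no error bar). Blue points are the list labelled WT, red points the list labelled Bmi1 KO, and open squares mark a list without a promoter peak; the gap is widest at Gjb2 (62.6 and 98.5), and Slc12a2 lies at 98.2 and 97.2.

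Gjb2 encodes the main connexin of cochlear supporting cells and is the gene most often mutated in inherited deafness. The gene lies on the minus strand at chr14:57098600-57104702. The list labelled WT had a peak at chr14:57104331-57104824, centred in the UTR 124 bp downstream of the TSS, with 22 reads at the summit over a local background of 8.42. The list labelled Bmi1 KO had a peak at chr14:57104159-57104692, centred in the intron 276 bp downstream of the TSS, with 40 reads over 10.16 and a −log10 q of 8.44. The peaks overlapped by 362 bp, of which the 138 bp shown above lie in the intron. Reads over background were thus 2.61 and 3.94, a ratio of 1.51 (exact conditional 95% interval 0.874 to 2.66). Such intervals of ratios treat reads or peaks as independent counts and cover counting error only, not PCR duplicates or the spread between animals. This ratio exceeded that of 96.5% of the 6421 genes whose strongest promoter peaks overlapped, whose median was 1.03, but its interval includes 1. Of those genes 3.69% had a ratio of at least 1.5. Among the members only Gjb2, Kcnj10 and Slc26a4 had strongest promoter peaks that overlapped, and of these Gjb2 alone had such a ratio.

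A further peak labelled Bmi1 KO at chr14:57104886-57105277, centred 380 bp upstream of the TSS, had 24 reads over 9.96 and was 61 bp from the nearest peak labelled WT. It runs over the part of the Gjb2 promoter sequence that holds the first GC box printed above. The list labelled WT held instead a weak peak at chr14:57113825-57114056, 9239 bp upstream, with 15 reads at the 4.57th percentile, near the start of the annotated gene Gm4491. Accessible chromatin at Gjb2 was thus concentrated at the TSS in both lists.

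Gjb6 encodes the connexin that pairs with Gjb2 in cochlear gap junctions. The gene lies 18600 bp from Gjb2, at chr14:57123303-57133611 on the minus strand. Neither list had a peak at its 5′ start. The peak labelled WT was at chr14:57122509-57122719, beyond the 3′ end of the gene, and counted as a promoter peak because its centre was 2607 bp from a TSS inside the gene. It had 16 reads, at the 23.3rd percentile. The peak labelled Bmi1 KO was at chr14:57142060-57142287, 8563 bp upstream, with 19 reads at the 24.0th percentile. The low-CpG promoter printed above therefore lay outside every peak of both lists. Over the cluster of Gja3, Gjb2 and Gjb6 with its flanks (chr14:57024460-57143611), there were 4 peaks labelled WT and 12 labelled Bmi1 KO, of which 2 in each list overlapped the other. The window spans 119152 bp, and over the regions of all protein-coding genes there were 4.54 and 5.7 peaks per 100 kb, 28.9% and 21.9% of them overlapping.

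Gja1, the connexin found in most tissues, lies at chr10:56377330-56402513 on the plus strand. The list labelled WT held 3 peaks, all in the gene body over 8 kb from the nearest TSS and all with 15 reads, at the 9.68th percentile. In the list labelled Bmi1 KO 2 of 3 peaks were near the start of the gene. The strongest, at chr10:56378594-56379146, was centred 218 bp from the nearest TSS and had 24 reads over 8.14 at the 82.5th percentile, and a second at chr10:56377971-56378202 had 22 reads at the 69.3rd. The remaining peak, 7866 bp upstream at chr10:56369349-56369578, also had 22 reads. No peak of Gja1 overlapped between the lists, and the nearest pair was 8578 bp apart. Over all protein-coding genes only 28.9% of peaks labelled WT and 21.9% labelled Bmi1 KO overlapped the other list.

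Kcnq1 is the pore-forming subunit of the marginal cell potassium channel. At 320681 bp (chr7:143106362-143427042, plus strand) the gene makes up 55.4% of the length searched over the 8 genes, and it held 19 peaks labelled WT and 33 labelled Bmi1 KO. The ratio was 1.74 (exact conditional 95% interval 0.959 to 3.23), while the other 7 genes held 16 and 17 peaks in their regions, a ratio of 1.06 (0.505 to 2.25). Of the 961 genes with at least 10 peaks labelled WT, 18.7% held at least 1.5 times as many labelled Bmi1 KO, and their median ratio was 1.12. When the strongest 77596 peaks of each list were compared, Kcnq1 held 19 and 23, a ratio of 1.21 (0.631 to 2.35), since 10 of its 33 peaks labelled Bmi1 KO were among the weakest of that list. With only peaks of −log10 q 1.3 or higher, Kcnq1 held 7 and 20, a ratio of 2.86 (1.16 to 8.0), beside a ratio of 1.55 between the whole lists at that threshold. The part that the unequal depth has in these counts was not tested.

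At the start of Kcnq1 the peaks of the lists did not meet. Those labelled WT were at chr7:143109114-143109503, with 23 reads over 8.18, and at chr7:143111139-143111346, with 22 reads over 8.14. Those labelled Bmi1 KO were at chr7:143107208-143107407 (24 reads over 10.08), chr7:143107929-143108244 (26 over 10.12) and chr7:143109778-143110097 (26 over 9.36). The strongest of each list stood at similar heights, 2.81 and 2.78 times the background, a ratio of 0.988 (0.542 to 1.81). Of the 11618 protein-coding genes with a promoter peak in both lists, 6421 had strongest promoter peaks that overlapped.

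The strongest peak of Kcnq1 labelled Bmi1 KO was not at its promoter but 190.2 kb into the gene, at the start of Kcnq1ot1. This long noncoding RNA is transcribed from the opposite strand of a Kcnq1 intron, on the paternal chromosome, and is known for silencing neighbouring imprinted genes. The peak labelled Bmi1 KO at chr7:143296458-143296943 had 29 reads over 8.62 and stood at the 94.4th percentile (−log10 q 4.43). The peak labelled WT at chr7:143296222-143296593 had 19 reads over 6.32 and stood at the 70.8th percentile. They overlapped in the stretch printed above, and their reads over background, 3.36 and 3.0, gave a ratio of 1.12 (0.607 to 2.11). Within 3 kb of the Kcnq1ot1 TSS, where Gm27539 and Gm37364 are also annotated, there were 4 peaks labelled Bmi1 KO and 1 labelled WT. Besides the one at the 94.4th percentile, those labelled Bmi1 KO stood at the 24.5th, 33.6th and 80.0th percentiles. The same count over other genes was not computed. In Kcnq1, 4 of its 19 peaks labelled WT and 4 of its 33 labelled Bmi1 KO overlapped the other list, beside 28.9% and 21.9% over all protein-coding genes. They overlapped at the Kcnq1ot1 start and at 3 other intronic positions, chr7:143174458-143174746, chr7:143262792-143262930 and chr7:143408310-143408463. At these 3 the summits labelled WT had 18 reads over 7.42, 15 over 6.54 and 18 over 7.02, and those labelled Bmi1 KO 23 over 8.56, 24 over 8.04 and 21 over 8.04.

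**Figure D2:**
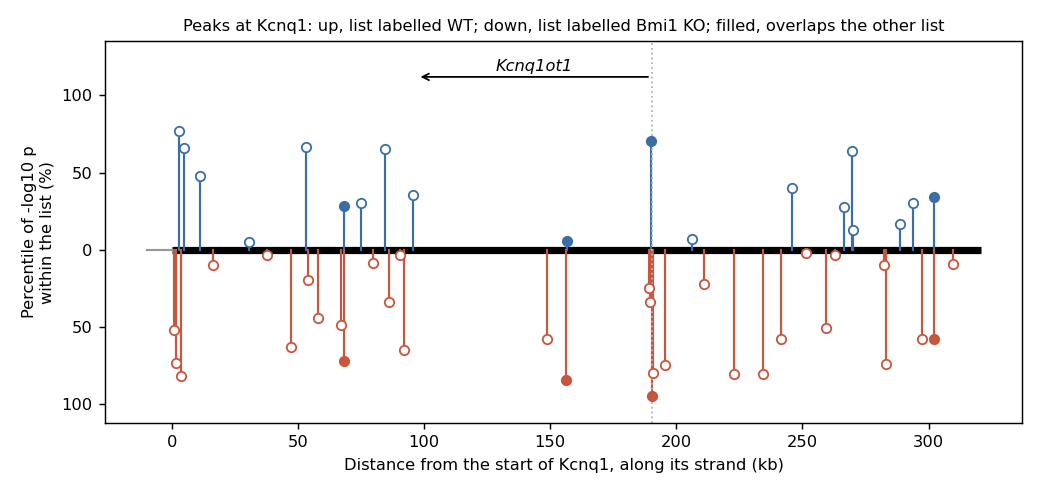
Peaks in Kcnq1 and the 10 kb upstream, by distance of the peak centre from the start of the gene (kb) and percentile of −log10 p within the list; blue points above the gene are labelled WT (19), red points below are labelled Bmi1 KO (33), and filled points overlap the other list (4 in each). The dotted line is the start of Kcnq1ot1, 190.2 kb into the gene, where the strongest red point stands at the 94.4th percentile.

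Kcne1, the accessory subunit that slows and enlarges the Kcnq1 current, lies at chr16:92345982-92359468 on the minus strand. The list labelled WT held 2 promoter peaks. At chr16:92358959-92359158, in an intron 185 bp from the nearest TSS, it had 21 reads over 8.42 (47.4th percentile), and at chr16:92362007-92362255, 2663 bp upstream, it had 19 over 7.68 (33.0th). The list labelled Bmi1 KO held 4 peaks, all in the gene body and none within 3 kb of a TSS. The strongest, at chr16:92355571-92355974, had 26 reads over 8.98 at the 86.2nd percentile, and its centre missed the promoter window at 3101 bp. The other 3 had 22 or 23 reads, and 2 of them lay in the UTR at the far end of the gene. The absence of a Kcne1 promoter peak labelled Bmi1 KO thus depends on where the window ends.

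Kcnj10 lies at chr1:172341210-172374085 on the plus strand. Each list had a peak over its start, chr1:172341074-172341575 labelled WT with 22 reads over 7.68, and chr1:172340622-172341221 labelled Bmi1 KO with 29 reads over 11.26. The peaks overlapped by 148 bp, and the peak labelled Bmi1 KO reached over the whole upstream sequence printed above, with its GC and CCAAT boxes. Reads over background were 2.86 and 2.58, a ratio of 0.899 (0.499 to 1.64). Peaks away from the start did not overlap the other list. Over all protein-coding genes 28.9% of peaks labelled WT and 21.9% labelled Bmi1 KO overlapped, promoter peaks included. Peaks labelled WT were found at chr1:172335062-172335351 upstream (81.0th percentile), at chr1:172358453-172358806 in the intron (91.1st) and at chr1:172370242-172370455 in the UTR (66.3rd). Labelled Bmi1 KO were an intronic peak at chr1:172349890-172350329, with 33 reads over 12.06 at the 90.5th percentile, and a weak one at chr1:172342805-172343070 at the 10.5th.

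Slc26a4 lies at chr12:31519827-31559969 on the minus strand. Peaks of both lists began at the same base, chr12:31559779-31560012 labelled WT with 18 reads over 6.32, and chr12:31559779-31559993 labelled Bmi1 KO with 23 over 8.04. Reads over background were 2.85 and 2.86, a ratio of 1.0 (0.519 to 1.98). This stretch is also within 3 kb of the start of Gm48524, an annotated neighbour, so the peak cannot be given to either gene alone. The list labelled Bmi1 KO held another peak at chr12:31558892-31559209, 918 bp into the gene, with 23 reads. The rest of the gene held no peak in either list.

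Slc12a2 lies at chr18:57878678-57946821 on the plus strand and had the strongest promoter peak of the 8 genes in the list labelled WT. Around its start the list labelled WT held 3 narrow peaks, and the list labelled Bmi1 KO held 1 peak of 1032 bp that overlapped the first 2 and ended 177 bp before the last. The narrow peaks, at chr18:57878364-57878602, chr18:57878762-57879035 and chr18:57879306-57879559, had 21, 18 and 26 reads, each over 6.32. The wide peak, at chr18:57878097-57879128, had 35 reads over 9.72 and a −log10 q of 6.28. Reads over background at the strongest were 4.11 labelled WT and 3.6 labelled Bmi1 KO, a ratio of 0.876 (0.512 to 1.51), though those summits are at different positions. Farther in, an intronic peak labelled WT at chr18:57885222-57885437 had 16 reads, and a peak labelled Bmi1 KO at chr18:57930398-57930687 had 21. The latter lay 3338 bp from an internal TSS, just outside the promoter window.

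**Figure D3:**
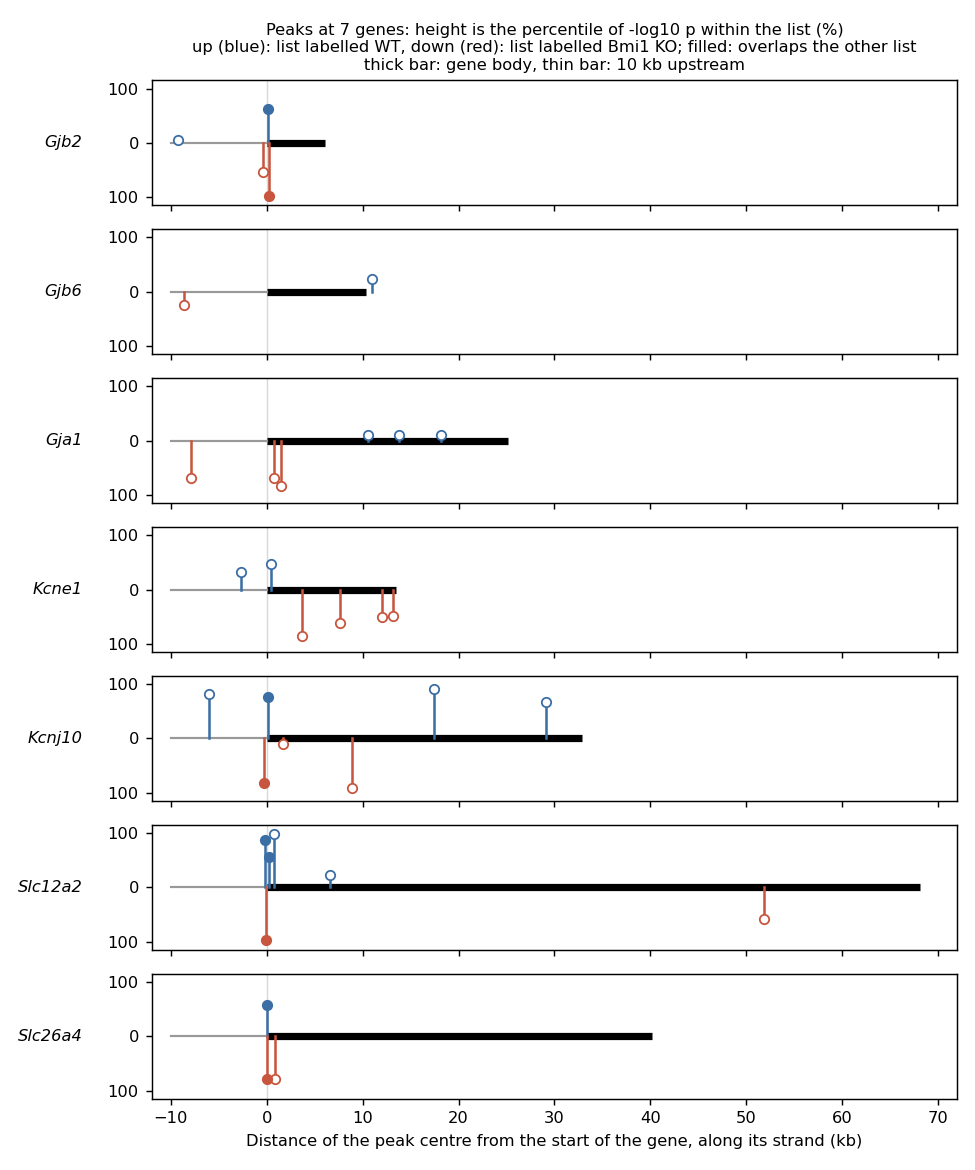
Peaks at the 7 genes other than Kcnq1, by distance of the peak centre from the start of the gene (kb) and percentile of −log10 p within the list; blue points above each gene are labelled WT, red points below are labelled Bmi1 KO, and filled points overlap the other list. Overlapping peaks stand only at the starts of Gjb2, Kcnj10, Slc12a2 and Slc26a4.

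Over the 8 genes together, 9 of the 36 peaks labelled WT overlapped a peak of the other list by at least 1 bp (25.0%, 12.1 to 42.2) and 8 of the 50 labelled Bmi1 KO did (16.0%, 7.17 to 29.1). Over all protein-coding genes 28.9% and 21.9% did, so overlap was low at other genes too. Within 500 bp of a peak of the other list there were 12 (33.3%) and 13 (26.0%), against 37.0% and 29.5%. Overlap at promoters was 5 of 11 promoter peaks labelled WT and 4 of 12 labelled Bmi1 KO. The same share over the promoter peaks of all genes was not computed, and 28.9% and 21.9% include gene-body peaks. Most peaks lay in introns, 24 of 36 and 39 of 50. Peaks were weak. Summits held 15 to 26 reads (median 18.5) labelled WT and 17 to 40 (median 22.5) labelled Bmi1 KO, and 44.4% and 70.0% of them had a q-value under 0.05, against 52.4% and 62.8% of the lists. Peaks stood at 5.86 and 8.38 per 100 kb of the regions searched, against 4.54 and 5.7 over all protein-coding genes, and at 6.01 and 6.39 without Kcnq1.

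Overlapping peaks had more CpG than the others. A CpG observed over expected ratio of at least 0.6 was found under 6 of the 9 peaks labelled WT that overlapped the other list and under 1 of the 27 that did not. In the list labelled Bmi1 KO it was found under 4 of 8 and under 6 of 42. The same order held for all peaks, of which 79.2% labelled WT and 59.3% labelled Bmi1 KO overlapped where the ratio was at least 0.6, and 17.1% and 12.8% where it was lower. Of the member peaks, 19.4% labelled WT and 20.0% labelled Bmi1 KO had such a ratio, against 12.4% and 12.2% of the lists. Gjb2 and Slc12a2 had the highest ratios, and Kcnq1 shared 3 CpG-poor positions. Within 100 bp of the summit of the strongest promoter peak, a GC box was found at Gjb2, Kcnj10 and Slc26a4 labelled WT (3 of 7 genes). Labelled Bmi1 KO it was found at Gja1, Kcnj10, Slc12a2 and Slc26a4 (4 of 6). Of all peaks of each list, at promoters or not, 11.3% hold such a match, while 35.7% of the RefSeq promoter windows do. The share over the strongest promoter peaks of all genes was not computed.

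**Figure D4:**
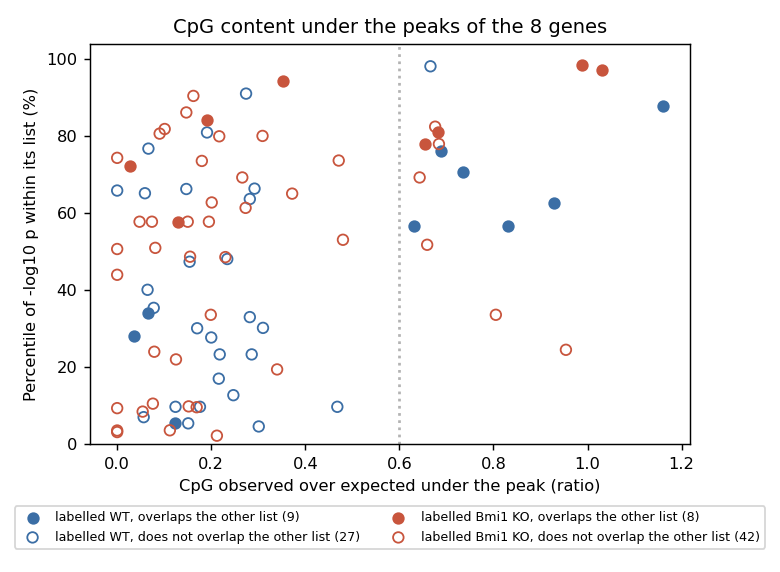
CpG observed over expected under each peak of the 8 genes (x axis, a ratio) against the percentile of −log10 p within its list (y axis, %). Filled points overlap the other list (9 labelled WT in blue, 8 labelled Bmi1 KO in red) and open points do not (27 and 42); right of the dotted line at 0.6 lie 6 of the 9 and 4 of the 8 filled points.

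The other connexin genes, 17 in all, had a promoter peak labelled WT at 8 and labelled Bmi1 KO at 11, of which 6 had both, beside the 59.1% and 68.2% of all genes. Gjd4, at percentile 87.8, was among the 2 of 17 that had it labelled WT only, beside 6.10% of all genes. Labelled Bmi1 KO only were Gja5 (91.4), Gja3 (90.0) and Gja4 (80.7), a lens and 2 vascular connexins among them, and Gja10 (29.2) and Gjb5 (11.2). Gja6, Gjb1, Gjc3 and Gje1 had none. The strongest peak stood higher in the list labelled Bmi1 KO at 9 of 13 genes with a peak, beside 68.6% of all genes. Gja1 was thus joined by 5 other connexin genes with promoter peaks labelled Bmi1 KO only, a pattern that 15.2% of all genes had.

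The other endolymph ion transport genes, 30 in all, had a promoter peak labelled WT at 20 and labelled Bmi1 KO at 24, of which 19 had both, beside 59.1%, 68.2% and 53.0% of all genes. P2rx2, an ATP-gated channel of hair cells and their neighbours, had it labelled WT only (35.2), 1 of the 30 beside 6.10% of all genes. In the list labelled Bmi1 KO only it was found at 5 of the 30, beside 15.2% of all genes. Among those labelled Bmi1 KO only were Slc26a5, the gene of the outer hair cell motor protein prestin (91.4), Kcne3 (62.7), Kcnj15 (44.0) and Aqp5 (35.4). Bsnd, Kcnj13, Kcnj16, Slc26a7 and Aqp4 had none. The highest percentile in the list labelled WT was that of Kcne2 (97.3), and in the list labelled Bmi1 KO that of the sodium pump subunit gene Atp1b2 (99.2). The strongest peak stood higher in the list labelled Bmi1 KO at 15 of 25 genes with a peak, beside 68.6% of all genes.

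**Figure D5:**
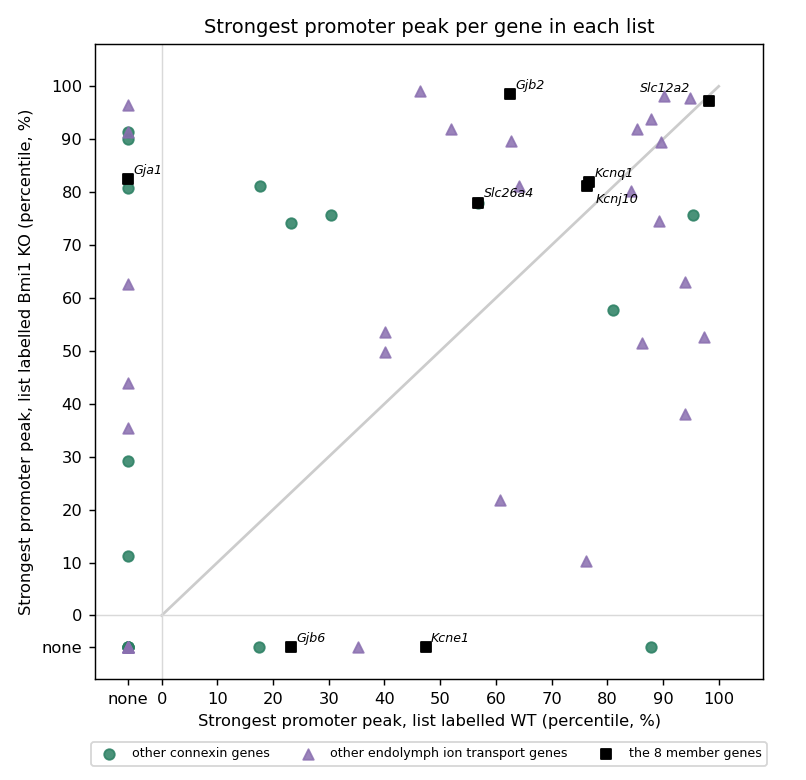
Percentile of −log10 p of the strongest promoter peak in the list labelled WT (x axis) and in the list labelled Bmi1 KO (y axis), for the 8 genes (squares), 17 other connexin genes (circles) and 30 other endolymph ion transport genes (triangles); genes without a promoter peak in a list are drawn at "none". Gjb2 stands at 62.6 and 98.5, and Slc26a4 covers the circle of Gjd2, which has the same pair of values.

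Among the genes of those lists with a promoter peak in both libraries, 25 in all, the nearest in its pair of percentiles was Slc12a7 for Kcnq1 (distance 7.62 percentage points) and for Kcnj10 (7.93), Slc4a7 for Slc12a2 (3.41) and Gjd2 for Slc26a4 (0.0). Each distance rests on 1 value per library. The distance of 0.0 reflects equal summits, 18 reads over 6.32 and 23 over 8.04, which many weak peaks share.

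Cell type markers were read beside the background, since 59.1% and 68.2% of all genes had a promoter peak. By the study's methods the stria vascularis and the modiolus were taken off during dissection, so the strial and neuronal classes below are those the dissection aimed to remove. Hair cell markers had a promoter peak at 6 labelled WT and 7 labelled Bmi1 KO of 8 genes, and supporting cell markers at 8 and 7 of 9. Markers of strial marginal cells, which include Kcnq1 and Kcne1 themselves, had it at 5 and 4 of 6, of intermediate cells and melanocytes at 4 and 3 of 6, and of lateral wall fibrocytes and mesenchyme at 4 and 6 of 7. Those of neurons and glia had it at 3 and 4 of 6, of endothelium at 3 and 3 of 4, and of blood and macrophages at 2 and 1 of 4. Among fibrocyte and mesenchyme markers, Tbx18, Pou3f4 and Car3 had it labelled Bmi1 KO only and Col1a1 labelled WT only, beside 15.2% and 6.10% of all genes. An accessible promoter does not by itself identify a cell type, and the part of cell composition in the values of the 8 genes was not tested.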

How the data were processed

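ATAC-seq libraries of the organ of Corti, 1 of WT and 1 of Bmi1 KO mice, were grouped by the genotype in the sample labels. The authors trimmed paired-end reads, checked them with FastQC, mapped them with BWA-MEM to mm10 and called peaks in each library with MACS2; versions are not given in the sources used here. Per the labels and the paper, HOMER was among the tools. Fold enrichment was deposited as a ratio, summit pileup over local background after adding 1 to each, and was used with the deposited −log10 p and −log10 q. The deposited score was not used. Peaks labelled WT on unplaced sequence (230 of 77826) and labelled Bmi1 KO (237 of 100668) were left out, and no other peak lay beyond a GRCm38 chromosome end.

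Summit reads and background were solved from the fold enrichment and −log10 p, with a whole number of reads at 100.0% of peaks in each list, a step tested on simulated data. No read totals were used, so the depth is known only as this background. Peaks were placed by their centre with GENCODE vM21 or, as an alternative, RefSeq transcripts, using Python 3.11.15, numpy 2.4.6, pandas 2.3.3, scipy 1.17.1 and matplotlib 3.10.9. No p-value could be computed between genotypes from 1 library each. The members and lists were chosen with earlier results of these data known. Named genes are the 8 members, genes of the other lists with a promoter peak in 1 list only, with none or with the highest percentile, neighbours within 3 kb of a described peak, and the nearest gene in percentiles. Some genes that this rule names are not reported here. The markers named were chosen after their values were seen.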

Additional observations from a re-analysis of the deposited data

How the results depend on the processing

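No paired analysis was possible because each genotype has 1 library and the result comes from no test. At a −log10 q of at least 1.3, no gene had a promoter peak labelled WT only (0, against 2), 16 peaks labelled WT stayed in the regions of the 8 genes (against 35), and 5 labelled Bmi1 KO overlapped the other list (against 8). At a −log10 q of at least 5, 0 genes kept a promoter peak labelled WT and 2 labelled Bmi1 KO, which were then the 2 with it in that list only and the 2 that stood higher there. The peaks left in the regions were 0 labelled WT and 2 labelled Bmi1 KO, with 0 overlaps in either list. With a reciprocal overlap of 50%, 3 peaks in each list overlapped. Promoters within 1 kb, RefSeq transcripts, and any overlap of the peak with the window each left 1 gene with a promoter peak labelled WT only. A GC box was found at 4 genes within 100 bp of the summits labelled Bmi1 KO, against 2 in the RefSeq promoters. Chosen after seeing the data, leaving out Kcnq1 left 16 and 17 region peaks, 5 and 4 of them overlapping, and a distance of 500 bp to the other list gave 13 labelled Bmi1 KO. Leaving aside the settings chosen after seeing the data, 48 values stayed within 1.5 times of the main value and 18 did not. Those 18 all belong to the settings named above and are not further changes. The cause was not tested. Depth limits all values, since summits held at most 40 reads.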
